A study of Mus musculus with 12 samples.

Results

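Onecut1, Onecut2 and Onecut3 and Ebf1, Ebf2, Ebf3 and Ebf4, all the genes that encode Onecut and EBF transcription factors in the mouse, were followed through the accessible chromatin of differentiating motor neurons. A domain was assigned to a gene when it overlapped the transcription start site (TSS) ± 1 kb, overlapped the gene body, or had that gene's TSS as the nearest of all protein-coding TSS. The 7 genes were taken from 21938 protein-coding genes on the basis of their family and not by a measured value, though earlier results of these data were known. Their domains merged into 285 of the 218562 regions of the series, 102 of them at Onecut genes and 183 at Ebf genes.

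Accessible chromatin was mapped by ATAC-seq, in which a transposase cuts open DNA, in 12 samples of mouse embryonic stem cells cultured as embryoid bodies (6 groups of 2 samples). EBs without retinoic acid (RA) or smoothened agonist (SAG), and progenitors after 2 days of 1 µM RA and 0.5 µM SAG, were of the line Ainv15(iCre). The 4 other groups had 4 days of RA and SAG: the lines Ainv15(iFlag.Hoxc6), Ainv15(iFlag.Hoxc9) and Ainv15(iFlag.Hoxc10) with 3 µg/mL doxycycline (Dox) for the last 48 h, called iHoxc6, iHoxc9 and iHoxc10 here, and Ainv15(iFlag.Hoxc6) without Dox, called no Dox. Each transgene was a Flag-tagged Hox gene in 1 copy at the HPRT locus, all cells of the embryoid bodies were taken without sorting, and each line stood alone for its Hox gene.

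Both samples of a group were pooled by the authors into 1 list of accessible domains, which gives the positions of domains but neither their height nor their reads. No value therefore had a replicate, no difference could be tested, and read depth was unknown. The lists held 56232 to 94875 domains and 17.8 to 29.7 Mb, with iHoxc9 the shortest in Mb at 17.8 and no Dox the longest at 29.7. The iHoxc10 list had the fewest domains, 56232, and the widest, with a median of 212.5 bp beside 129 to 155 bp in the others. Of its domains 15.7% were under 50 bp, beside 28.4% to 36.5% in the others. Comparisons with iHoxc10 thus also set lists of unlike domain width beside each other. The no Dox list was added with later records, had 6 columns where the others had 3, and carried another day in its name than in its label, so that sample series and possible calling settings cannot be told apart from Dox in any induced list against no Dox. For iHoxc9 and iHoxc10 against no Dox, cell line cannot be told apart from Dox either. In no Dox against EB or progenitors, cell line, sample series and possible calling settings cannot be told apart from time. All 3 induced lists were compared with the same no Dox list. Promoter domains at Pou5f1 and Nanog, genes of the pluripotent state, were found in EB and in no other list. Of 5 pluripotency genes examined, 4 had one in EB, 2 in progenitors and 1 in each day 4 list, with Esrrb lacking it throughout. All 5 motor neuron genes examined (Isl1, Mnx1, Lhx3, Chat and Slc18a3) had one in every list except iHoxc9, which lacked one at Chat. With whole embryoid bodies, fewer cells with an open site and less opening per cell cannot be told apart.

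Onecut factors bind DNA through a cut domain and a homeodomain. In the spinal cord they are made by newly born motor neurons and by several interneuron types. EBF factors (early B-cell factors, also called COE or Olf/Ebf) bind as dimers through a zinc-containing domain, and they are switched on as progenitors leave the cell cycle and become neurons. In motor neurons both families work beside Isl1 and Lhx3, and Onecut1 is known to act upstream of Isl1.

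A domain within 1 kb of the TSS was found at all 7 genes in all 6 lists. Over all protein-coding genes such a domain was held by 65.6% in EB, 63% in progenitors, 62.1% in no Dox, 62.3% for iHoxc6, 59.3% for iHoxc9 and 59% for iHoxc10. Presence of a domain of any width at the promoter thus did not separate the stages at these genes. With domains at least 150 bp wide, 6 of 7 genes had one in EB and 5 in iHoxc9, and 7 in each other list. The shares of all genes above are for any width, so these counts have no background beside them. Onecut3 in EB rested on 1 domain of 42 bp. The lists differed in how far these domains extended and in what lay around them.

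**Figure D1:**
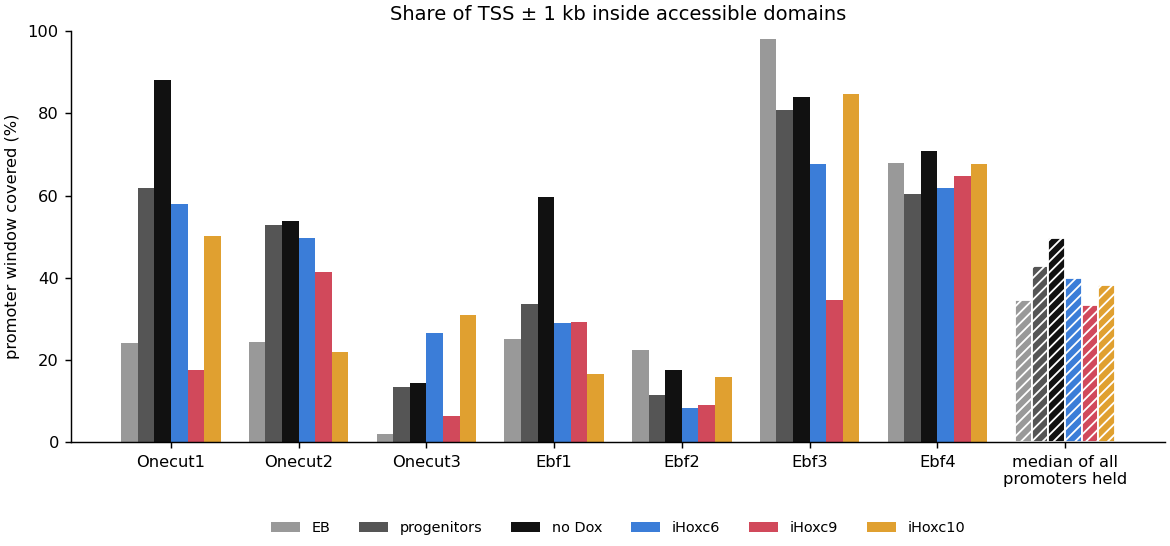
Share of the 2001 bp window around each TSS (percent, y axis) that lay inside accessible domains, for each gene (x axis) and each of the 6 pooled lists (colours); hatched bars give the median over all promoters that held a domain in that list. Onecut1 ranged from 17.6% in iHoxc9 to 88.1% in no Dox, whereas Ebf4 stayed between 60.5% and 70.8%.

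In the promoter window of Onecut1, 24.1% of the bases were accessible in EB, 61.9% in progenitors, 88.1% in no Dox, 58.1% for iHoxc6, 17.6% for iHoxc9 and 50.1% for iHoxc10. The iHoxc9 value was below that of EB, and the other day 4 values were above it. Set against all promoters that held a domain in the same list, the no Dox window of Onecut1 was wider than 95.2% of them and the iHoxc9 window wider than 20.2%. The Ebf3 window was covered for 98.1% in EB, 80.8% in progenitors, 84.0% in no Dox, 67.7% for iHoxc6, 34.7% for iHoxc9 and 84.8% for iHoxc10. Ebf3 was thus open over nearly the whole window already in EB, and iHoxc9 again had the lowest value.

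At Onecut2 the window was covered for 24.5% in EB, 53.0% in progenitors, 53.9% in no Dox, 49.7% for iHoxc6, 41.3% for iHoxc9 and 22.0% for iHoxc10. Here iHoxc10, not iHoxc9, was lowest among the day 4 lists. Ebf1 had 25.2%, 33.7%, 59.6%, 29.0%, 29.2% and 16.6% in the same order of lists, also with its lowest value in iHoxc10. Onecut3, at 2.1% in EB and 13.4%, 14.5%, 26.5%, 6.50% and 30.9% in the others, and Ebf2, between 8.25% in iHoxc6 and 22.3% in EB, had little of the window covered in every list. The Ebf4 window lay between 60.5% and 70.8% in all lists. The median over all promoters with a domain was itself 34.6% in EB, 49.6% in no Dox and 33.5% in iHoxc9, so that part of the spread between lists was common to promoters.

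The promoters of Onecut1 and Ebf3, where these widths changed most between no Dox and iHoxc9 among the 7 genes, are shown by the 250 bases before their TSS (RefSeq, GRCm38.p6, on the strand of the gene). Sequences were found in the RefSeq table for Onecut1, Ebf1, Ebf3 and Ebf4. Capitals mark these words or their reverse complements: TAAT (the core read by many Hox factors), TTTAT (read by posterior Hox factors), TGATTTAT (a PBX-Hox word), ATTGAT (the Onecut core) and CCCNNGGG (the palindrome bound by EBF dimers).
Onecut1 promoter, chr9:74861671-74861920, plus strand: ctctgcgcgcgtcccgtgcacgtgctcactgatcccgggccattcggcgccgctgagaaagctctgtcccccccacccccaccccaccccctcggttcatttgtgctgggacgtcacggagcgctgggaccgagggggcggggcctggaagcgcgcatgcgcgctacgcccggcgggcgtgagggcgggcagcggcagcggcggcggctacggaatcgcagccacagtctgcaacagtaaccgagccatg
Ebf3 promoter, chr7:137314446-137314695, minus strand: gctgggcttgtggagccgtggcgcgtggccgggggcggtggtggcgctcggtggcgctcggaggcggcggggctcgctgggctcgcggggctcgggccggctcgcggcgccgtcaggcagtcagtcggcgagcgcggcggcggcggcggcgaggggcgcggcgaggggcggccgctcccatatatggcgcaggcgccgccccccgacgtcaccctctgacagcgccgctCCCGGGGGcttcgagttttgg
Both were rich in G and C, at 71.6% for Onecut1 and 80.0% for Ebf3, beside a median of 52% over 27025 promoters, and held 31 and 43 CpG pairs beside a median of 6. CCCNNGGG occurred once at Ebf3 and in 11.7% of all promoters, and none of the other words occurred in either window. TAAT was found in 55.3% of all promoters, TTTAT in 38.1%, TGATTTAT in 0.918% and ATTGAT in 6.97%. TGATTTAT holds TTTAT, and overlapping words were each counted.

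**Figure D2:**
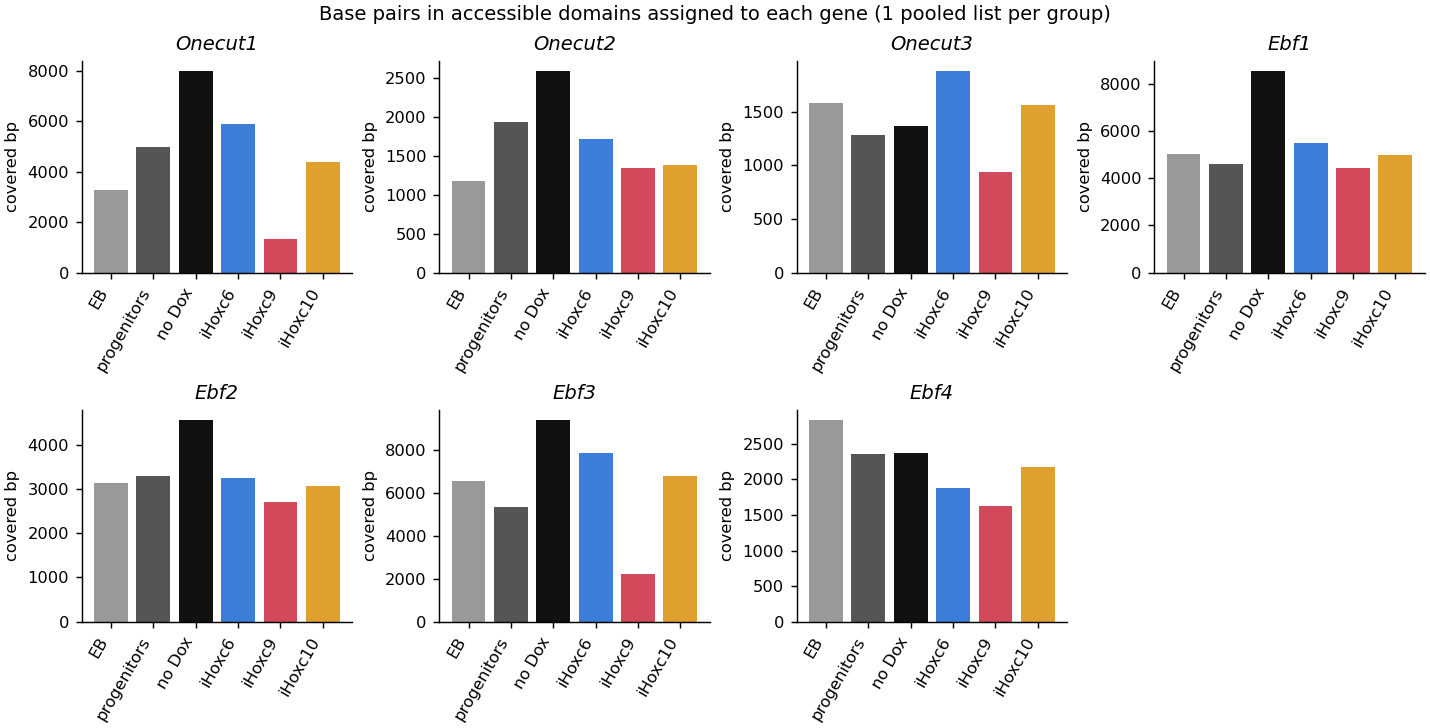
Base pairs of accessible domains assigned to each of the 7 genes (y axis, linear from 0, with its own scale in each panel) in the 6 pooled lists (x axis, 1 value per list and hence no error bar). Onecut1 and Ebf3 had their lowest values in iHoxc9, 1346 and 2220 bp, and their highest in no Dox, 7976 and 9373 bp.

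Over promoter, gene body and surroundings together, the 7 genes had 117 domains and 23590 bp in EB, 101 domains and 23795 bp in progenitors, 126 and 36763 bp in no Dox, 117 and 27913 bp in iHoxc6, 87 and 14619 bp in iHoxc9, and 85 and 24311 bp in iHoxc10. As a share of all accessible bases, that was 1023 bp per Mb of the list in EB, 925 in progenitors, 1236 in no Dox, 1127 for iHoxc6, 823 for iHoxc9 and 1208 for iHoxc10. The iHoxc9 list thus gave these genes the smallest share. Between no Dox and iHoxc9, Onecut1 went from 268 to 75.8 bp per Mb of the list and Ebf3 from 315 to 125.

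Covered bp were next compared between pairs of lists, each as a share of its list, and a gene was called when the shares differed at least 2-fold, among genes with at least 500 bp in either list. Of the 7 genes, 0 were called in progenitors against EB, where 6.29% of all genes tested were called higher and 9.62% lower. In no Dox against progenitors 0 of 7 were called, beside 3.17% higher and 3.94% lower, and in no Dox against EB again 0 of 7, beside 7.64% and 12.1%. The median ratio of the 7 genes was 0.821, 1.20 and 1.13 in these 3 comparisons, and that of all genes 0.992, 0.986 and 0.985. Without scaling by list length, 8.75% of all genes were called higher and 7.64% lower in progenitors against EB, 5.52% and 2.61% in no Dox against progenitors, and 15.9% and 7.98% in no Dox against EB, and 2 of the 7 genes, Onecut1 and Onecut2, were then higher in no Dox than in EB.

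**Figure D3:**
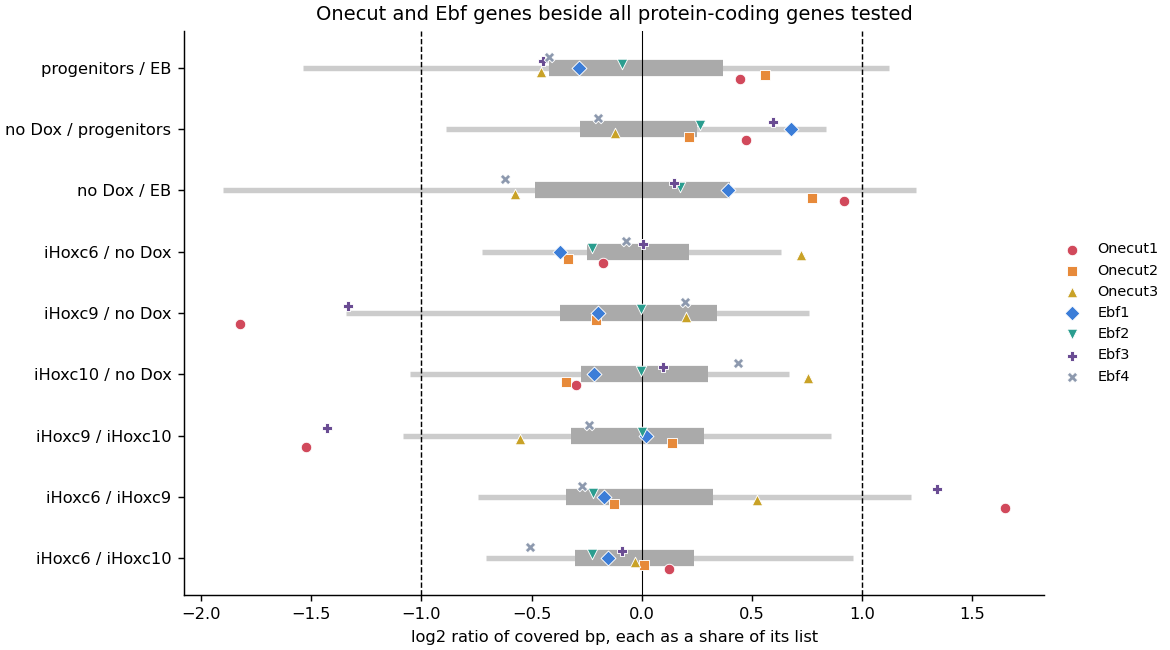
Log2 ratio of covered bp, each as a share of its list (x axis), for the 7 genes (coloured points, shifted vertically to avoid overlap) in 9 pairs of pooled lists (y axis); thick grey bars span the 25th to 75th and thin ones the 5th to 95th percentile of all genes tested, and dashed lines mark a 2-fold difference. Onecut1 and Ebf3 lie beyond a dashed line in the 3 pairs that include iHoxc9, and no other gene crosses one in any pair.

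On this measure, over promoter, gene body and surroundings, all calls among the 7 genes involved the iHoxc9 list. In iHoxc9 against no Dox 2 of 7 genes were called lower, Onecut1 and Ebf3, and 0 higher, beside 8.11% of all genes lower and 2.38% higher. Without scaling, 31.2% of all genes were lower in iHoxc9 and 0.489% higher, and the same 2 of the 7 were called. In iHoxc9 against iHoxc10, which does not use the no Dox list, the same 2 genes were lower, beside 5.87% lower and 3.51% higher among all genes. In iHoxc6 against iHoxc9 they were higher in iHoxc6, beside 6.91% higher and 2% lower. These 3 comparisons share the iHoxc9 list and are not independent of each other.

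On the same measure, neither of the other Hox lists gave a call against no Dox or against each other. In iHoxc6 against no Dox, both of the Hoxc6 line, 0 of 7 were called, beside 1.82% higher and 2.39% lower. In iHoxc10 against no Dox 0 of 7 were called, beside 1.6% and 5.43%, and without scaling beside 0.456% and 17.2%. In iHoxc6 against iHoxc10 0 of 7 were called, beside 4.68% and 1.55%. Without scaling the shares of all genes called higher and lower were 1.01% and 4.87% in iHoxc6 against no Dox, 2.38% and 8.2% in iHoxc9 against iHoxc10, 16.8% and 0.553% in iHoxc6 against iHoxc9, and 8.45% and 0.645% in iHoxc6 against iHoxc10. Onecut3 was then called as well in iHoxc6 against iHoxc9, at a log2 ratio of 1.00, for 3 of 7 genes. With promoter and gene body alone it was called there too, at 1.48, beside 5.91% of all genes higher. With domains at least 150 bp wide it was called lower in iHoxc9 than in iHoxc10, at -1.01, beside 7.25% of all genes. The median ratio of the 7 genes to no Dox was 0.886 for iHoxc6, 0.871 for iHoxc9 and 0.997 for iHoxc10, and that of all genes 0.991, 1.01 and 1.03.

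Onecut1 (ENSMUSG00000043013.10) lies on chromosome 9 at 74861921 to 74891781 on the plus strand, with the next protein-coding TSS 752 kb to its left and 91.0 kb to its right. It had 3269 bp in EB, 4964 in progenitors, 7976 in no Dox, 5882 for iHoxc6, 1346 for iHoxc9 and 4387 for iHoxc10. The values of EB, progenitors and no Dox followed the course of differentiation, and iHoxc9 was below all of them. As a share of the list, no Dox against EB gave a ratio of 1.89 (log2 0.92), higher than 91.1% of genes tested. This ratio reached 2-fold under 6 of the 6 alternatives, for example 1.75 on the log2 scale with promoter and gene body alone.

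For iHoxc9 against no Dox the ratio of Onecut1 was 0.283 (log2 -1.82), and 2.76% of the 15124 genes tested had a lower one. Against iHoxc10 it was 0.348, and iHoxc6 had 3.13 times the iHoxc9 share. With domains at least 150 bp wide the log2 ratio against no Dox was -2.62, and without scaling -2.57. The difference lay in each part of the locus, since promoter domains had 2330 bp in no Dox and 353 in iHoxc9, those in the gene body 1289 and 174, and those nearby 4357 and 819. Against no Dox the ratio was 0.886 in iHoxc6 and 0.813 in iHoxc10.

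**Figure D4:**
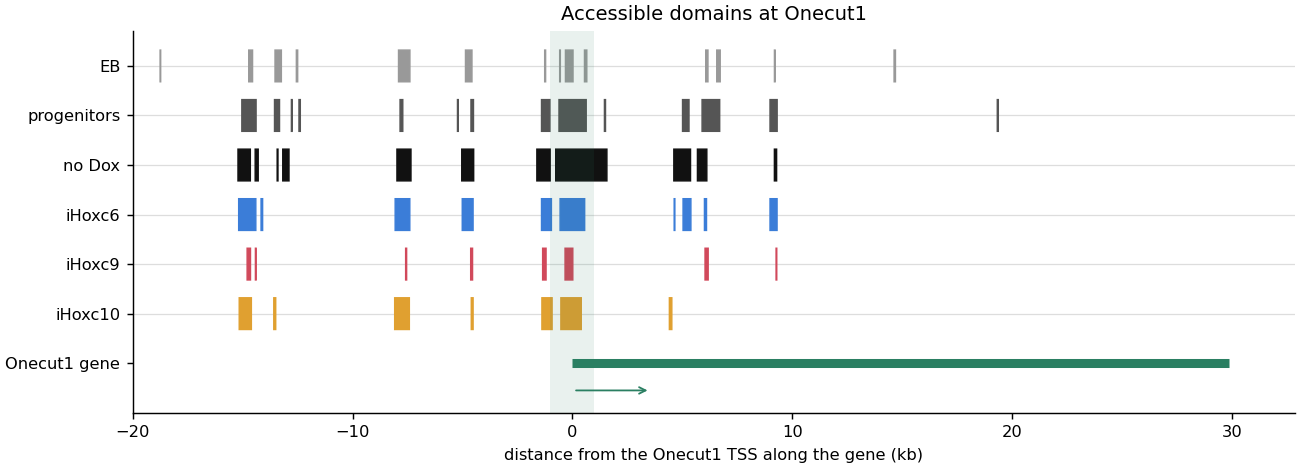
Accessible domains of the 6 pooled lists (rows) around Onecut1, by distance from its TSS in kb (x axis), with the gene as a green bar, its direction as an arrow and TSS ± 1 kb shaded; width is to scale apart from a thin outline that keeps the narrowest visible, and height has no meaning. The region at 5.00 kb is held by progenitors, no Dox and iHoxc6, and no domain of iHoxc9 is wider than 353 bp.

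At single sites of Onecut1, domains of iHoxc9 were among the narrowest. The promoter region, chr9:74861160-74863489, which runs from upstream over the first coding exon, had 482 bp in EB, 1288 in progenitors, 2330 in no Dox, 1119 in iHoxc6, 353 in iHoxc9, and 928 in the iHoxc10 list. A region at -7.72 kb, chr9:74853832-74854573, had 519, 124, 639, 667, 45 and 668 bp in the same order. There iHoxc9 alone among the day 4 lists had under 100 bp, whereas at -4.77 kb, chr9:74856884-74857426, iHoxc9 had 85 bp and iHoxc10 83, beside 543 in no Dox and 493 in iHoxc6. A region at -14.8 kb, chr9:74846702-74847621, had 174, 649, 700, 781, 184 and 553 bp, with EB and iHoxc9 both under the others. An intronic region at 5.00 kb, chr9:74866535-74867311, was held by progenitors (295 bp), no Dox (760 bp) and iHoxc6 (388 bp), and by neither iHoxc9 nor iHoxc10. The neighbouring intronic region at 6.21 kb, chr9:74867609-74868645, had its largest value in progenitors, 802 bp, with 259 in EB, 428 in no Dox, 94 for iHoxc6, 143 for iHoxc9 and 0 for iHoxc10.

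The intronic region absent from both posterior Hox lists is shown first, and then a merged region at -155 kb. Each is given by its central 200 bases on the plus strand (GRCm38, mm10), marked as above. At -155 kb only day 4 lists had domains, and the printed window lay inside the no Dox domain alone.
Onecut1 intron, chr9:74866823-74867022: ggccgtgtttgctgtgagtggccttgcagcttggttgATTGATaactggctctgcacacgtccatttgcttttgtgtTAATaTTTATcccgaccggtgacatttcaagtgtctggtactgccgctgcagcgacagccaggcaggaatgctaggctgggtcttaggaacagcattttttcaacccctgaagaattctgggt
Onecut1 at -155 kb, chr9:74706651-74706850: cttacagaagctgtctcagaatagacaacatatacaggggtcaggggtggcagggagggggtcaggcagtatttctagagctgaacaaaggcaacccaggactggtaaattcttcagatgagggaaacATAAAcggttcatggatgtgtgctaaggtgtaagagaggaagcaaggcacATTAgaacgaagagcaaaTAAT
The intronic window held 1 TAAT, 1 TTTAT and 1 ATTGAT and no CCCNNGGG. The distal window, in a region with 650 bp in no Dox, 37 for iHoxc6, 22 for iHoxc9 and 177 for iHoxc10, held 2 TAAT and 1 TTTAT. The distal region thus had a wide domain in no Dox and a narrower one in each induced list. The iHoxc9 domain did not overlap that of no Dox.

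Onecut2 (chromosome 18, 64340020 to 64400987, plus strand) had 1176 bp in EB, 1932 in progenitors, 2592 in no Dox, 1713 for iHoxc6, 1342 for iHoxc9 and 1383 for iHoxc10. The share ratio of no Dox to EB was 1.71, and those of the induced lists to no Dox were 0.794, 0.867 and 0.789 for iHoxc6, iHoxc9 and iHoxc10. The last 3 were close to each other, in contrast to Onecut1. The region at its TSS had 490, 1060, 1079, 995, 827 and 440 bp in the order of lists given for Onecut1. An intronic region at 3.91 kb (341 bp in no Dox, 49 in progenitors, 38 in iHoxc6) was absent from iHoxc9 and iHoxc10, as the one at Onecut1 was.

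Onecut3 (chromosome 10, 80494835 to 80517276, plus strand) had 1582 bp in EB, 1286 in progenitors, 1368 in no Dox, 1880 for iHoxc6, 939 for iHoxc9 and 1562 for iHoxc10. As a share of the list it was higher in iHoxc6 and iHoxc10 than in no Dox, with ratios of 1.65 and 1.69, above 96.2% and 96.4% of genes tested but short of 2-fold. With promoter and gene body alone the log2 ratios were 1.60 and 1.12, past the 2-fold limit, and for no Dox against EB -1.06. The largest site, at -19.2 kb, had 582 to 947 bp in the 6 lists and lay outside the gene. In iHoxc9 the share ratio to no Dox was 1.15, while the unscaled log2 ratio was -0.54, so the sign depended on scaling.

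Ebf3 (ENSMUSG00000010476.14) lies on chromosome 7 at 137193673 to 137314445 on the minus strand. It had 6563 bp in EB, 5356 in progenitors, 9373 in no Dox, 7830 for iHoxc6, 2220 for iHoxc9 and 6770 for iHoxc10. Its number of domains was 14 in EB, 19 in progenitors, 31 in no Dox, 31 for iHoxc6, 17 for iHoxc9 and 20 for iHoxc10. The bases did not follow the course of differentiation, since EB had more than progenitors, and iHoxc9 was lowest. For iHoxc9 against no Dox the share ratio was 0.397 (log2 -1.33), with 5.04% of genes lower; against iHoxc10 it was 0.371, and iHoxc6 had 2.53 times the iHoxc9 share.

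Most of this difference lay in the gene body. Gene body domains of Ebf3 had 5268 bp in no Dox, 4351 in iHoxc6, 2926 in iHoxc10 and 401 in iHoxc9. The promoter domains had 2086, 1604, 1718 and 695 bp in these lists, and those nearby 2019, 1875, 2126 and 1124. With promoter and gene body alone the log2 ratio of iHoxc9 to no Dox was -2.00. Of the 16 no Dox regions of Ebf3 with at least 150 bp, 14 were held by iHoxc6, 12 by iHoxc10 and 6 by iHoxc9 (37.5%). Over all genes 73% of such regions were held by iHoxc9, and over the 7 genes 43 of 66 (65.2%).

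**Figure D5:**
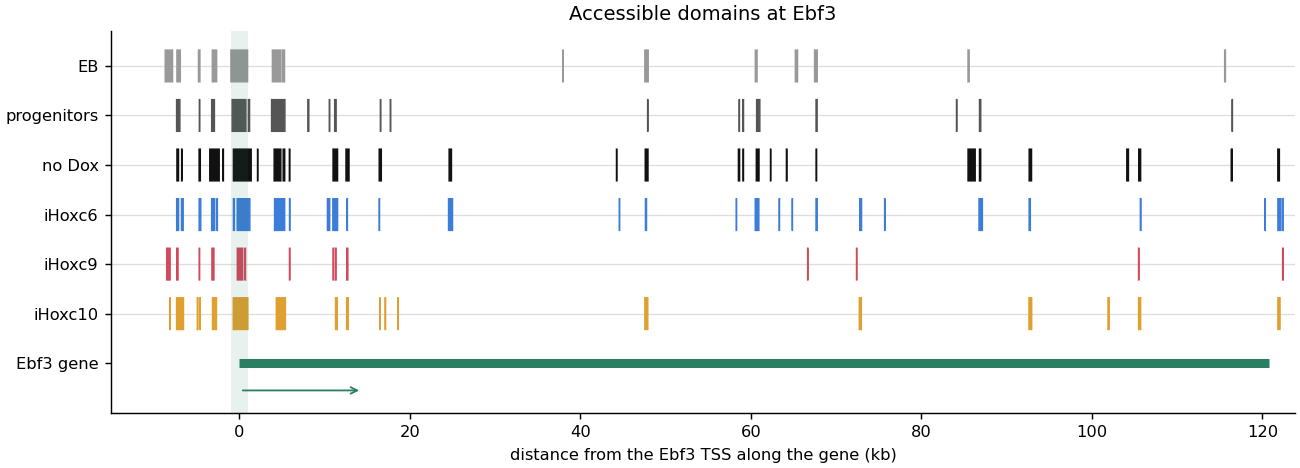
Accessible domains of the 6 pooled lists (rows) along Ebf3, by distance from its TSS in kb in the direction of transcription (x axis), with the gene as a green bar and TSS ± 1 kb shaded; width is to scale apart from a thin outline that keeps the narrowest visible, and height has no meaning. In iHoxc9 the gene body holds 401 bp in 7 narrow domains, beside 2926 bp in 11 domains in iHoxc10.

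The widest site of Ebf3 missing from iHoxc9, chr7:137309027-137310650 at 4.61 kb, spans coding exon and flanking sequence and had 1220 bp in EB, 1567 in progenitors, 967 in no Dox, 1189 for iHoxc6, 0 for iHoxc9 and 1065 for iHoxc10. Each of the 5 other lists held at least 967 bp there. An intronic region at 47.8 kb, chr7:137266478-137266875, had 398, 33, 323, 124, 0 and 347 bp in the same order. A region at 60.8 kb, chr7:137253386-137253925, had 204, 379, 319, 424, 0 and 0 bp, and was absent from iHoxc10 as well. A region at 24.8 kb, chr7:137289428-137289895, was held by no Dox (274 bp) and iHoxc6 (468 bp) alone, both of the Hoxc6 line. A region at 85.9 kb had 838 bp in no Dox, 138 in EB and 0 in the 4 other lists.

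A pair of intronic regions of Ebf3 is shown, one missing from both posterior Hox lists and one held by progenitors and every day 4 list but not by EB, by their central 200 bases on the plus strand.
Ebf3 at 60.8 kb, chr7:137253556-137253755: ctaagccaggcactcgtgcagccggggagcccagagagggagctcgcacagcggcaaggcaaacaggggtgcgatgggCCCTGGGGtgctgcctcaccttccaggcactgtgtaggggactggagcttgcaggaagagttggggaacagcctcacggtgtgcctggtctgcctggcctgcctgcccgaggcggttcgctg
Ebf3 at 11.3 kb, chr7:137303084-137303283: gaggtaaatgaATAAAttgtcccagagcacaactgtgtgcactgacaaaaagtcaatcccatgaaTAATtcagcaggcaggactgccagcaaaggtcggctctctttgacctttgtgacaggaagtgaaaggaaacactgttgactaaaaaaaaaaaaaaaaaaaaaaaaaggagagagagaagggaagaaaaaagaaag
The first had 67% G and C and 1 CCCNNGGG and none of the other words. The second had 38.5% G and C, 1 TAAT and 1 TTTAT, and its region had 174 bp in progenitors, 530 in no Dox, 557 in iHoxc6, 123 in iHoxc9, 210 in iHoxc10 and 0 in EB.

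Ebf1 (chromosome 11, 44617317 to 45008091, plus strand) is the longest of the 7 genes at 391 kb. It had 5041 bp in EB, 4617 in progenitors, 8529 in no Dox, 5491 for iHoxc6, 4436 for iHoxc9 and 4965 for iHoxc10. No Dox stood above all other lists, the induced ones included, and the share ratio to progenitors was 1.60, above 92.4% of genes. The share ratios of iHoxc6, iHoxc9 and iHoxc10 to no Dox were 0.773, 0.871 and 0.861. Side by side, the iHoxc9 ratio of Ebf1 was the highest of the 3.

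Ebf2 (chromosome 14, 67233292 to 67430918, plus strand) had 3128 bp in EB, 3281 in progenitors, 4551 in no Dox, 3236 for iHoxc6, 2710 for iHoxc9 and 3070 for iHoxc10. Its share ratios to no Dox were 0.854, 0.997 and 0.997 in iHoxc6, iHoxc9 and iHoxc10. Domain numbers, 12 to 17, varied little between lists. Ebf2 thus held its share of the iHoxc9 list, in contrast to Ebf3.

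Introns of Ebf1 and Ebf2 held sites with no domain in EB and one in every day 4 list. An Ebf1 region at 127 kb, chr11:44744106-44744540, had 0 bp in EB and progenitors, 406 in no Dox, 423 for iHoxc6, 427 for iHoxc9 and 210 for iHoxc10. Another at 65.9 kb, chr11:44682954-44683541, had 0 in EB, 305 in progenitors, 548 in no Dox, 538 for iHoxc6, 243 for iHoxc9 and 394 for iHoxc10. An Ebf2 region at 146 kb, chr14:67378670-67379174, had 0, 0, 233, 291, 119 and 277 bp in that order. Their central 200 bases follow on the plus strand, since all 4 day 4 lists held them.
Ebf1 at 127 kb, chr11:44744223-44744422: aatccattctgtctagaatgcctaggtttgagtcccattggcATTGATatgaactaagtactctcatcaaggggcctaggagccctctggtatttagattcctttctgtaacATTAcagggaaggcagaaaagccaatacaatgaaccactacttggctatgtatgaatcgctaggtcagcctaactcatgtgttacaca
Ebf1 at 65.9 kb, chr11:44683148-44683347: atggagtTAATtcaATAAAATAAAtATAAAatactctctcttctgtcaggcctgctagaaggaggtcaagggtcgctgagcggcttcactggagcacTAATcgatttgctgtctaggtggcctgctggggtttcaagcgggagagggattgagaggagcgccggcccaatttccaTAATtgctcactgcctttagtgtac
Ebf2 at 146 kb, chr14:67378822-67379021: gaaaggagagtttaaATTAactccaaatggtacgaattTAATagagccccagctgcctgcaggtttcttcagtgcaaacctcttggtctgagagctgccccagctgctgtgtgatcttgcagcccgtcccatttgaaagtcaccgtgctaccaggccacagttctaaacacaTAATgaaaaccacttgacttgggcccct
The Ebf1 window at 127 kb held 1 TAAT and 1 ATTGAT, and the one at 65.9 kb 3 TAAT and 3 TTTAT. The Ebf2 window held 3 TAAT. TAAT was thus found in each of these 3 windows, as in 72.8% of the longer central windows of all regions.

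Other sites of these genes were held by fewer lists. An Ebf1 region at 327 kb (643 bp) was in progenitors alone, and one at 144 kb had 378 bp in EB, 285 in progenitors and 0 at day 4. An Ebf2 region at 84.8 kb had 317 bp in progenitors, 422 in no Dox and 373 in iHoxc10, and 0 in iHoxc6 and iHoxc9. An Ebf2 region at 2.19 kb over a coding exon had 136, 463 and 41 bp in progenitors, no Dox and iHoxc6, and 0 in EB, iHoxc9 and iHoxc10.

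Ebf4 (chromosome 2, 130295169 to 130370481, plus strand) had 2831 bp in EB, 2359 in progenitors, 2374 in no Dox, 1881 for iHoxc6, 1626 for iHoxc9 and 2174 for iHoxc10. EB was highest, with 11 domains where the other lists had 4 or 5. The share ratio of no Dox to EB was 0.650, and for the induced lists against no Dox 0.951, 1.15 and 1.35. Its promoter region had 1365, 1585, 1848, 1239, 1295 and 1618 bp in the order of lists given for Onecut1, most of its bases in each list from progenitors on. Some gene body regions of Ebf4 also overlapped or lay nearest to Cpxm1, so that these cannot be told apart between the genes. As for Onecut3, the iHoxc9 sign depended on scaling, with an unscaled log2 ratio of -0.55.

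Presence over the 6 lists was then examined for all 285 regions. All 6 lists held 27 of them (9.47%), beside 11.2% of all regions of the series. EB alone held 55 (19.3% beside 21.1%), progenitors alone 27 (9.47% beside 12%) and no Dox alone 29 (10.2% beside 11.1%). The induced lists alone held 72 (25.3% beside 21.3%), of which Ebf1 had 22, Ebf3 17 and Onecut1 16. Regions in 1 list made up 61.1% of those at the 7 genes and 63.7% of all, and were narrow, with a median of 44 bp beside 716 bp for those in all 6.

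Stage classes were small. EB and progenitors but no day 4 list held 3 regions (1.05% beside 1.61%), all at Ebf1. Progenitors and all 4 day 4 lists without EB held 6 (2.11% beside 2.77%), 3 at Ebf1, 2 at Ebf2 and 1 at Ebf3. All day 4 lists without EB or progenitors held 5 (1.75% beside 1.07%), at Ebf3 (2), Ebf1, Ebf2 and Onecut1. Among merged regions at least 150 bp wide, these 3 classes made up 1.8%, 5.41% and 4.5% at the 7 genes, beside 2.59%, 6.99% and 2.64% of all. The classes held few regions, and the differences were not tested.

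Of regions in both progenitors and no Dox, 10 were absent from iHoxc6 (3.51% of the 285, beside 2.59% of all regions), 20 from iHoxc9 (7.02% beside 6.1%) and 21 from iHoxc10 (7.37% beside 5.9%). Absence from iHoxc9 and iHoxc10 with presence in iHoxc6 was found in 7 (2.46% beside 2.27%), and absence from all 3 induced lists in 6 (2.11% beside 1.71%). These classes overlap, since the 7 and the 6 are also counted among the 20 and among the 21. Of the 20 absent from iHoxc9, Ebf3 had 9 (of its 54 regions), Onecut1 4 (of 61) and Ebf1 3 (of 84). Onecut2 had 2 (of 23), Ebf2 2 (of 33), Onecut3 0 (of 18) and Ebf4 0 (of 12). At Ebf3, 3 of the 9 were among the 7 and 3 among the 6, and so were absent from iHoxc10 as well. The shares over the 7 genes together were close to the background, and the counts per gene have no background beside them.

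The words were counted in the central 300 bp of every region, on both strands. TAAT was found in 217 of the 285 (76.1%) and in 72.8% of all regions, TTTAT in 144 (50.5%) and 50.5%, and TGATTTAT in 8 (2.81%) and 2.06%. ATTGAT was found in 50 (17.5%) and 12.4%, and CCCNNGGG in 28 (9.82%) and 10.6%. The median G and C content was 49.3% for the 285 and 47.7% for all. These are matches of letters and not bound sites.

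Other genes of neuronal differentiation were taken as a list of 23: factors of motor neuron identity (such as Isl1, Isl2, Lhx3, Mnx1), proneural factors (such as Neurog1, Neurog2 and Neurod4), partners of EBF proteins (Zfp423, Zfp521) and genes of the neuronal cytoskeleton and RNA (such as Tubb3, Dcx, Stmn2, Elavl3). In no Dox against EB 11 of 23 were at least 2-fold higher and 1 lower (Neurod2), with a median ratio of 1.86, beside 7.64% higher and 12.1% lower and a median of 0.985 over all genes. Dcx, which encodes a microtubule protein of young neurons, had the ratio 7.63, Mnx1 3.08 and Lhx3 2.94. In no Dox against progenitors 5 were higher, Lhx3, Mnx1, Nhlh1, Nhlh2 and Tubb3, beside 3.17% of all genes. There 1 was lower, Neurod2, beside 3.94%, and the median was 1.51. In progenitors against EB 4 were higher, Dcx among them, beside 6.29% of all genes. Another 2 were lower (Nhlh1 and Nhlh2), beside 9.62%, and the median was 1.12.

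In iHoxc9 against no Dox 2 of the 22 of these genes with enough bases were lower, near the 8.11% of all genes. They were Isl2, with a ratio of 0.417, and Neurog1, with 0.370. Of the 22, 0 were higher, beside 2.38%, and their median was 0.815. Isl2 and Neurog1 were also the 2 genes higher in iHoxc6 than in iHoxc9, beside 6.91% of all genes. In iHoxc6 and in iHoxc10 against no Dox 1 was higher, Neurod2, which had 351 bp in no Dox, and 0 lower, with medians of 0.952 and 0.980. Over all genes 1.82% and 1.6% were higher there, and 2.39% and 5.43% lower. In iHoxc9 against iHoxc10 Neurog1 and Neurod2 were lower, beside 5.87% of all genes. In iHoxc6 against iHoxc10 0 were called, beside 4.68% higher and 1.55% lower. The 5 motor neuron marker genes had 652 bp per Mb of the list in iHoxc9, beside 875 in no Dox, 818 in iHoxc6, 923 in iHoxc10 and 511 in EB. Of 4 interneuron markers, 1 (En1) had a promoter domain in iHoxc9, beside 4 in no Dox and 2 in iHoxc6 and iHoxc10. EB and progenitors, before neurons form, each had 3. The 5 spinal progenitor markers had 945 bp per Mb in iHoxc9, beside 1408 in no Dox, 1237 in iHoxc6, 1386 in iHoxc10 and 744 in EB. Summed interneuron levels were 287 to 361 bp per Mb over the lists, with 344 in iHoxc9, 334 in no Dox and 338 in iHoxc6. The 5 pluripotency genes had 366 bp per Mb in iHoxc9, beside 330 in no Dox, 336 in iHoxc6, 275 in iHoxc10 and 619 in EB. Whether the make-up of the culture had a part in the values of Onecut1 and Ebf3 was not tested.

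Genes of like pattern were sought among all protein-coding genes by Euclidean distance over the 6 lists on the scale log2(covered bp + 100). Nearest to Onecut1 were Ephb2 (0.55) and Esrrg (0.68), and nearest to Ebf3 were Tpra1 (0.66) and Gbx2 (0.76). Ephb2 had 3324, 6484, 6647, 7029, 1466 and 4772 bp in the order of lists given for Onecut1, with iHoxc9 lowest as well. Since Ephb2 was chosen by likeness over these same values, unscaled by list length, that shared low follows from the choice. The closest pair of all was Onecut2 with Fam122a (0.12), followed by Tpcn2 (0.21). The others were Vezt and Eif3j1 for Onecut3 (0.38 and 0.39), Phactr3 and Atp5o for Ebf1 (0.36 and 0.38), Tbl1x and Chmp2a for Ebf2 (0.18 and 0.22) and Max and Vdac1 for Ebf4 (0.27 and 0.27). Onecut1 and Ebf3 did not have each other among these, and no pair within the 2 families did.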

How the data were processed

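The 12 ATAC-seq samples fell into 6 groups of 2 by the labels. Per the methods of the study and the submitters' processing notes, reads were mapped to mm10 with Bowtie2 2.2.2, Picard 2.8.2 was used, and accessible domains were called by the authors with DomainFinder of the SeqCode project, whose settings are not given in the sources used here. The deposited lists hold the start and end of each domain in bp, 1 list per group from both samples together. Coordinates are printed from 1, with deposited starts taken to count from 0, which no source gives, so that a start may be off by 1 bp.

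The 7 genes and all lists of genes and words were chosen with earlier results of these data known. On the autosomes, X and Y, domains were assigned to protein-coding genes of GENCODE M21 (GRCm38), and merged over the lists where they overlapped by at least 1 bp. Mitochondrial and unplaced domains were left out. Ratios compared covered bp divided by the total of the list, for genes with at least 500 bp in either list, and a ratio of at least 2 or at most 0.5 was called. No p-value was computed, since each group had 1 list. Named regions were those at TSS ± 1 kb and the widest of each class of presence at each gene. The regions of Onecut1 at -4.77, -7.72 and -14.8 kb and of Ebf3 at 24.8, 47.8 and 85.9 kb were named after their values were seen. Some items that these rules name are not reported here. Alternatives were domains at least 150 bp wide, lists shortened to the 56232 widest domains, promoter and gene body alone, a nearest TSS within 100 kb, TSS of every coding transcript, TSS ± 5 kb, merging within 200 bp and no scaling. Lists shortened to 56232 domains by file order were added after seeing the data. The code was tested on simulated lists: 200 of 200 changed genes were recovered and 0 of 21738 others called. Python 3.11.15, NumPy 2.4.6 and Matplotlib 3.10.9 were used.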

Additional observations from a re-analysis of the deposited data

How the results depend on the processing

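No paired analysis was possible because each list pools both samples of its group and holds no value per sample. Read depth and replicate spread could not be assessed. Of 282 values over the lists, comparisons and classes of presence under the alternatives, 217 stayed within 1.5 times of the reported value and 65 did not; the cause was not tested beyond what each alternative leaves out. The 6 alternatives run for the 2-fold calls each left 2 genes lower in iHoxc9 than in no Dox. Of all genes tested, 7.46% to 10.2% were lower under those with scaling. Without scaling 31.2% were lower, and 2 of 7 was near that share. For the results they bear on, merging within 200 bp, TSS ± 5 kb and the TSS of every transcript moved nothing past this limit.

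With domains at least 150 bp wide, the 7 genes had 50 domains in EB, 42 in progenitors, 67 in no Dox, 59 for iHoxc6, 31 for iHoxc9 and 51 for iHoxc10. Of the 7, 2 were called higher in no Dox than in EB (Onecut1 and Onecut2), beside 9.78% of all genes. Of 111 regions then left, 14 were in all 6 lists, 13 in EB alone, 3 in progenitors alone, 2 in all day 4 lists alone, 21 in induced lists alone and 11 in no Dox alone. Regions of progenitors and no Dox absent from iHoxc6 numbered 5, from iHoxc9 12, from iHoxc10 8, from iHoxc9 and iHoxc10 alone 4 and from all induced lists 2. Region counts under this and the following alternatives have no share of all regions beside them. They therefore cannot be read against a background.

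With lists shortened to equal length by width, the domains were 67 in EB, 60 in progenitors, 82 in no Dox and 76 in iHoxc6. Then 1 gene, Onecut1, was called higher in no Dox than in EB, beside 8.74% of all genes. Of 173 regions, 22 were in EB alone, 8 in progenitors alone and 12 in no Dox alone, and those of progenitors and no Dox absent from iHoxc6 numbered 4, from iHoxc9 9, from iHoxc10 9, from iHoxc9 and iHoxc10 alone 4 and from all induced lists 2. Shortened by file order, an alternative chosen after seeing the data, the domains were 71, 62, 81 and 76 in those 4 lists. There 1 gene was called higher in no Dox than in EB, beside 8.7% of all genes. Of 173 regions 25 were in EB alone, 8 in progenitors alone and 12 in no Dox alone. The absence classes held 4, 7, 9, 2 and 2 in the order above.

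With promoter and gene body alone, domains were 65 in EB, 66 in progenitors, 56 in iHoxc9 and 49 in iHoxc10, covered bp were 15371 in EB and 16149 in iHoxc10, and of 177 regions 14 were in all lists, 27 in EB alone, 14 in progenitors alone and 47 in induced lists alone. Then 1 gene, Onecut1, was higher in progenitors than in EB, beside 6.25% of all genes. In no Dox against EB 1 was higher (Onecut1) and 1 lower (Onecut3), beside 7.8% and 9.57%. In iHoxc6 against no Dox 1, Onecut3, was higher, and 1 in iHoxc10 against no Dox, beside 1.69% and 1.54%. With a nearest TSS within 100 kb 1 gene, Onecut1, was called higher in no Dox than in EB, beside 7.44% of all genes. Without scaling 2 were, Onecut1 and Onecut2, beside 15.9%.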
